A study of Homo sapiens with 4 samples.

Results

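SOHLH2, DCAF4L2 and NLRP2 are genes known from germ cells, testis or the oocyte, and they had several FPKM in parental K562 cells. They were taken by symbol from a table of 3200 rows, of which 2288 carry a gene symbol, and all 3 were found, each in 1 row. They were selected on their levels in these same 4 libraries, so those levels are a description. K562 is an established human line of chronic myeloid leukaemia with erythroid features that carries the BCR-ABL fusion. The table holds 1 poly-A RNA-seq library of each of 4 groups. These are untreated parental K562 (genotype WT in the labels), the untreated imatinib-resistant derivative K562/IMR, and K562 cells cultured for 48 h with vesicles named R-Exo or S-Exo. Imatinib inhibits the BCR-ABL kinase, R-Exo was read from the series title as exosomes of imatinib-resistant cells, and the series design names S-Exo as the control of R-Exo. All 4 groups were cultured in serum-containing RPMI medium. The imatinib dose under which K562/IMR was kept, the vesicle dose and whether K562/IMR is 1 clone were not given in the sources used here.

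SOHLH2 encodes a basic helix-loop-helix transcription factor of spermatogonia and young oocytes. In mice it works together with its relative SOHLH1, and loss of either blocks the differentiation of germ cells. DCAF4L2 encodes a WD-repeat protein of the DCAF group, whose members are known as candidate substrate receptors of CUL4-DDB1 ubiquitin ligases, and its transcript is known mainly from testis. NLRP2 encodes a protein of the NOD-like receptor family with a pyrin domain. In mice its product is needed from the egg for early embryo development, and in human cells it has been described as a modulator of NF-kB and caspase-1 signalling. Many germ-line genes are silent in somatic tissue, often under promoter methylation, and some of them are transcribed in tumour cell lines. Whether this holds for SOHLH2, DCAF4L2 or NLRP2 was not examined here.

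Over all 3200 rows the log2(FPKM + 1) values of S-Exo and parental correlated at a Pearson's r of 0.977 and those of R-Exo and resistant at 0.974, while the other 4 pairs gave 0.729 to 0.736. The R-Exo library, labelled as parental cells given vesicles, stood with the resistant line in this table. The rows are a set named as differentially expressed, and such a choice can lower the r of unlike libraries. Each R-Exo value below is given beside the resistant value that does not use it. Of 9 erythroid markers, 3 were listed and all had at least 16.2 FPKM in every library. These were HBZ (480 to 1253 FPKM), GYPB (16.2 to 91.7) and TFRC (98.6 to 224). GYPB can share reads with close paralogs. HBZ and GYPB were highest in resistant and R-Exo, and TFRC in parental and S-Exo. Their part in the levels of the 3 germ-cell genes was not tested.

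The 3 genes lie on different chromosomes and differ in structure (GENCODE release 29, GRCh38, matched by identifier). SOHLH2 (ENSG00000120669) lies on the minus strand of chromosome 13, from 36168208 to 36214615, and its longest coding transcript has 11 exons and 2193 nt. DCAF4L2 (ENSG00000176566) lies on the minus strand of chromosome 8, from 87870743 to 87874068, and is a single exon of 3326 nt. NLRP2 (ENSG00000022556) lies on the plus strand of chromosome 19, from 54953130 to 55001142, with 13 exons and 3576 nt in its longest coding transcript. FPKM is a value per length of the gene model, and the gene models that the authors used were not given in the sources used here.

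Reads of these genes can be shared with others to different degrees. The longest coding transcript of each gene was divided into all windows of 50 nt, a length chosen here because the read length was not given in the sources used here. Among the 3277 windows of DCAF4L2, 0 occurred in a transcript of another gene. For SOHLH2, 1423 of 2144 windows (66.4%) also occurred in CCDC169-SOHLH2, a readthrough model that overlaps it on the same strand. For NLRP2, 365 of 3527 windows (10.3%) occurred in its paralog NLRP7, whose model overlaps NLRP2 on the opposite strand. CCDC169-SOHLH2 and NLRP7 were not among the listed genes, so their levels are not known here. The SOHLH2 value is uncertain to the extent that fragments were split between SOHLH2 and the readthrough model.

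The stretches before the RefSeq starts of SOHLH2 and NLRP2 are shown because many germ-line genes are methylated at promoter CpG sites (RefSeq, GRCh38.p14). That of DCAF4L2 is not shown here. The RefSeq starts of SOHLH2 and NLRP2 lie inside the GENCODE spans given above and are not the starts of those gene models. Each stretch is the longest one without an annotated exon of the gene in the 250 bases before the RefSeq start. The SOHLH2 stretch runs from base -250 to -60 and the NLRP2 stretch from -154 to -33, so neither adjoins the start. Both are read 5′ to 3′ on the gene's strand, and capitals mark CpG dinucleotides, the sites of DNA methylation.
SOHLH2, chr13:36214616-36214806, minus strand: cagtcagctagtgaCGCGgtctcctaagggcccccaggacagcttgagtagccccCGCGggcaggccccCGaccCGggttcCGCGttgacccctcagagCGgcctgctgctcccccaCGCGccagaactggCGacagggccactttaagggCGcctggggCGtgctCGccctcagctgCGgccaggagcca
NLRP2, chr19:54965130-54965251, plus strand: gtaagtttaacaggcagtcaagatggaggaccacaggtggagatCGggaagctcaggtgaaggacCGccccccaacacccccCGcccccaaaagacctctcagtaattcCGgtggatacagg
The SOHLH2 stretch of 191 bases holds 16 CpG dinucleotides and the NLRP2 stretch of 122 bases holds 4. In the whole window of 300 bases around the start, SOHLH2 had 23 CpG at 70.3% GC and NLRP2 had 12 CpG at 54.7% GC, beside a median of 14 CpG and 58.7% GC over 35114 promoter windows of the same length. The ratio of observed to expected CpG was 0.621 for SOHLH2 and 0.536 for NLRP2 against a median of 0.579, so neither window stood far from the middle of all promoters by this measure. Motifs were searched on both strands. The letters CACGTG, a perfect E-box of the kind that helix-loop-helix factors bind, occur once in the SOHLH2 window, from base 15 after the start on, and 7.26% of all windows hold them. The wider CANNTG, which includes CACGTG, occurs at bases -78 and 15 from the SOHLH2 start and at bases -121 and -101 from the NLRP2 start, and 68.7% of all windows hold it. GCGGGA, a core of E2F sites, was not found in either window and is held by 26.9% of all windows. Methylation and binding were not measured in these libraries.

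SOHLH2 had 27.9 FPKM in parental cells, 25.0 in S-Exo, 0.327 in resistant and 0.466 in R-Exo. Its level was thus high in the parental and S-Exo libraries and low in the other pair. In parental cells it ranked 121 from the highest of the 3200 rows and 96.2% of rows lay below it, while in resistant cells 20.9% did. The resistant level was 1.17% of the parental level, a plain ratio of 85.2-fold, and the log2 difference of (FPKM + 1) was -4.44. Between R-Exo and S-Exo the plain ratio was 53.7-fold and the log2 difference -4.15. The 1 added to each value makes the log2 difference smaller than the plain ratio for low values. Since RNA of whole cultures was measured, fewer cells with the transcript and less of it per cell cannot be told apart.

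DCAF4L2 had 9.10 FPKM in parental cells, 9.32 in S-Exo, 0.135 in resistant and 0.0300 in R-Exo. The same pair of libraries was high and the same pair low. The resistant level was 1.48% of the parental level, which is 67.6-fold lower, and the R-Exo level was 0.322% of the S-Exo level, or 311-fold lower. On the log2(FPKM + 1) scale these differences were -3.15 and -3.32. The 311-fold ratio rests on an R-Exo value near the low end of the table, where 4.69% of the rows lay below it.

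NLRP2 had 7.80 FPKM in parental cells and 6.59 in S-Exo, and resistant and R-Exo listed it at 0. It shared the listing at 0 with 112 other rows in resistant and 110 other rows in R-Exo, so no fold is given. The log2 differences of (FPKM + 1) were -3.14 for resistant against parental and -2.92 for R-Exo against S-Exo. The depth of the libraries is unknown, so how many fragments a value of 0 could hide is not known either.

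**Figure D1:**
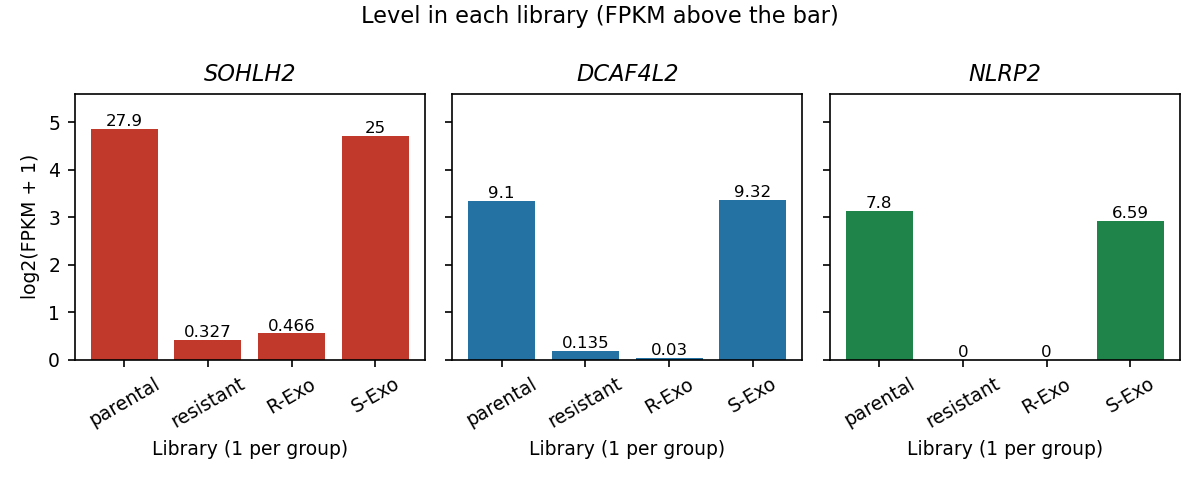
Level of SOHLH2, DCAF4L2 and NLRP2 as log2(FPKM + 1) in the 4 libraries, 1 library per group and therefore no error bar, with the FPKM above each bar. All 3 genes have bars in parental and S-Exo (6.59 to 27.9 FPKM) and little or none in resistant and R-Exo (0 to 0.466 FPKM).

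The order of the levels was SOHLH2, DCAF4L2, NLRP2 in all 4 libraries. SOHLH2 was 3.06 times DCAF4L2 in parental and 2.68 times in S-Exo, and 2.43 times in resistant, but 15.5 times in R-Exo, where DCAF4L2 had its lowest value. DCAF4L2 and NLRP2 were close in the high libraries, at a ratio of 1.17 in parental and 1.41 in S-Exo. With 1 library per group these orders have no replicate check.

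All 3 genes were counted as lower in resistant against parental cells, where a gene was compared if either library had at least 1 FPKM and counted at an absolute log2 difference of at least 1. By that limit 390 of 2151 compared genes (18.1%) were lower, and 602 (28%) were higher. When the median difference of all compared genes (0.42) was set to 0, 755 were lower and 276 higher, and after quantile normalization 534 and 447. The table is itself a set of genes that its name calls differentially expressed, and the 3 genes were chosen with these values known, so nothing is read from their count. Among the 1509 compared genes with a symbol, SOHLH2 ranked 3, DCAF4L2 8 and NLRP2 9 from the lowest difference. All 3 were also lower in R-Exo against S-Exo, beside 456 of 2154 compared genes (21.2%), with ranks of 5, 9 and 21 among 1517 genes with a symbol, while 499 (23.2%) were higher. With the median (0.21) set to 0 these counts were 678 lower and 331 higher. Against parental cells, R-Exo gave log2 differences of -4.30 for SOHLH2, -3.29 for DCAF4L2 and -3.14 for NLRP2, and 454 of 2115 compared genes (21.5%) were lower and 497 (23.5%) higher, or 759 and 279 with the median (0.34) set to 0. This last comparison shares the parental library with the first.

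**Figure D2:**
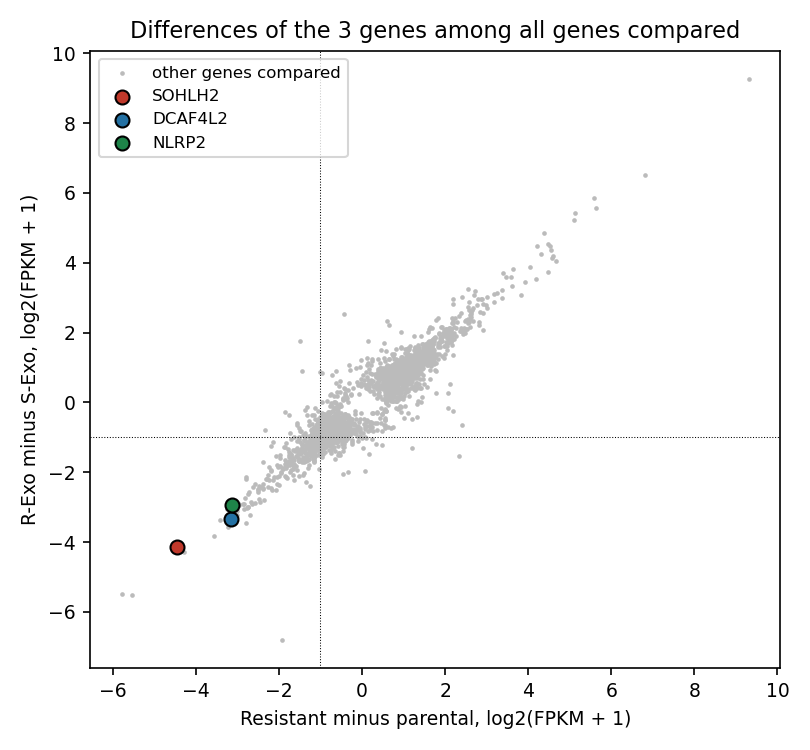
Log2 difference of (FPKM + 1) for resistant minus parental on the x axis and R-Exo minus S-Exo on the y axis, over the 1986 genes compared in both (grey points), with the 3 genes in colour and dotted lines at -1. The axes share no library, and the 3 genes lie at the low end of both, SOHLH2 at -4.44 and -4.15.

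S-Exo and parental cells differed little in all 3 genes. S-Exo was 0.897 times parental for SOHLH2, 1.02 times for DCAF4L2 and 0.846 times for NLRP2. Of 1723 compared genes, 21 (1.22%) were lower and 28 (1.63%) higher, and the 3 genes were not among them. Among the 505 rows with 5 to 50 FPKM in both libraries the same ratio ran from 0.769 at the 5th to 1.22 at the 95th percentile, and the 3 genes lay inside that range.

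R-Exo and resistant cells differed more in relative terms, at very low levels. SOHLH2 was 1.42 times as high in R-Exo as in resistant, and DCAF4L2 was 0.223 times as high. Over 607 rows with 0.02 to 0.5 FPKM in both libraries the ratio ran from 0.264 at the 5th to 2.85 at the 95th percentile. The SOHLH2 ratio lay inside and the DCAF4L2 ratio outside that range. Leaving out values under 0.02 FPKM narrows the range close to the R-Exo value of DCAF4L2, so no difference is read from this. Neither gene reached 1 FPKM in either library, so both were left out of the comparison, as was NLRP2. Of the 1879 genes compared there, 23 (1.22%) were lower and 30 (1.6%) higher in R-Exo.

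The same combination of high and low libraries occurred in few other rows. Of 574 rows with at least 5 FPKM in both parental and S-Exo, 19 (3.31%) had at most 0.5 FPKM in both resistant and R-Exo, and 15 of these carry a symbol, SOHLH2, DCAF4L2 and NLRP2 included. The highest of the 15 in parental cells were SSX2B (54.1 FPKM) and SSX2 (45.7 FPKM), above SOHLH2. SOHLH2 in R-Exo, at 0.466 FPKM, lay closest of the 3 to the limit of 0.5 and NLRP2 in S-Exo, at 6.59 FPKM, closest to the limit of 5. The reverse combination held in 26 of 577 rows (4.51%). These limits were set after the values had been seen and are a description.

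By Euclidean distance between log2(FPKM + 1) values centred on each gene's mean over the 4 libraries, the 5 genes nearest to SOHLH2 began with CBR1, a carbonyl reductase gene (distance 0.149), and NMI, an interferon-inducible interactor of MYC-family proteins (0.684). CBR1 had 18.4 FPKM in both parental and S-Exo, and the other pair listed it at 0. They went on with SELENOP, which encodes a selenium transport protein (0.925), DCAF4L2 itself (1.08) and RPL17-C18orf32 (1.15). RPL17-C18orf32 is a readthrough model whose fragments can be shared with its component genes. Only CBR1 among these lay closer than 0.5 to SOHLH2. With 0.1 instead of 1 added to each value, SYK (0.335), ZNF738 (0.429) and MT1X (0.453) lay closer than that. CBR1 was then not among the 5 nearest.

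DCAF4L2 had closer neighbours. They were EREG, which encodes the growth factor epiregulin (distance 0.128), SCG3, a secretogranin gene of secretory granules (0.181), RPL17-C18orf32 (0.208), TBX1, a T-box transcription factor gene of pharyngeal development (0.210), and SELENOP (0.220). EREG had 8.06 FPKM in parental, 7.85 in S-Exo and 0.0321 in resistant, and was listed at 0 in R-Exo. TBX1 had 7.08 and 7.61 FPKM in parental and S-Exo, and the other pair listed it at 0. With 0.1 added to each value the nearest gene lay closer to SOHLH2 (SYK, 0.335) than to DCAF4L2 (RNF182, 0.482).

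The genes nearest to NLRP2 were RPL17-C18orf32 (distance 0.117), IQGAP2, which encodes a scaffold protein of the actin skeleton (0.133), and ZNF738, a zinc finger gene (0.150). SLC27A2, which encodes a fatty acid transport protein (0.165), and EREG (0.170) followed. SLC27A2 differed in level, with 19.1 FPKM in parental and 1.56 in resistant, but had a like shape. NLRP2 and DCAF4L2 were 0.288 apart, and NLRP2 was number 7 among the genes nearest to DCAF4L2. A correlation would not have separated such genes, since over 4 libraries 304 to 332 of the 2287 other genes with a symbol reached a Pearson's r of 0.99 with each of the 3.

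**Figure D3:**
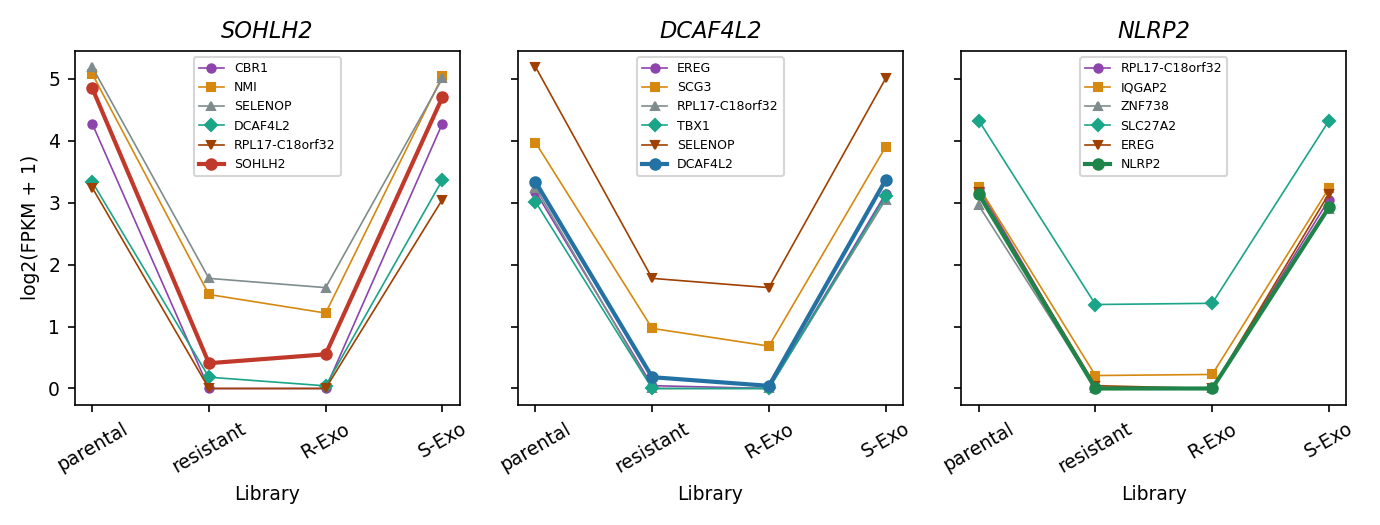
Log2(FPKM + 1) in the 4 libraries for each of the 3 genes (thick line) and the 5 genes with the nearest profile (thin lines), 1 panel per gene. Lines join libraries only to show the shape, and all profiles are high in parental and S-Exo and low in resistant and R-Exo.

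Of the listed genes within 3 Mb of the 3 on their chromosomes, CALB1 near DCAF4L2 had the lowest difference between resistant and parental on the log2(FPKM + 1) scale (-2.84), and by plain ratio others were lower than CALB1. Within 1 Mb of SOHLH2 there are 14 other coding genes, of which CCDC169 and RFXAP were listed and neither was counted as higher or lower. RFXAP, which encodes a part of the RFX complex of MHC class II genes, had 8.17 FPKM in parental, 8.61 in S-Exo, 4.20 in resistant and 3.83 in R-Exo. It was thus lower in the same pair of libraries as SOHLH2 (log2 differences -0.82 and -0.99), short of the limit as deposited and past it in both main comparisons with the median of all genes set to 0. CCDC169, the other part of the readthrough model, lies on the same strand with its 3′ end 7.39 kb from SOHLH2 and had 4.15 FPKM in parental, 3.70 in S-Exo, 2.91 in resistant and 2.72 in R-Exo. Its resistant level was 0.700 times the parental one, where that of SOHLH2 was 0.0117 times. RFC3, which encodes a subunit of the clamp loader of DNA replication, was the nearest listed gene on the other side, 2.20 Mb away, with 58.6 FPKM in parental and 36.1 in resistant.

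Within 1 Mb of DCAF4L2 there are 2 other coding genes, and 0 were listed. The nearest listed genes lie more than 2 Mb off on either side and differed in opposite directions. CALB1, which encodes the calcium-binding protein calbindin, had 56.3 FPKM in parental, 54.7 in S-Exo, 7.01 in resistant and 5.70 in R-Exo. CA2, which encodes the red-cell carbonic anhydrase II, had 0.0881, 0.160, 25.2 and 20.3 FPKM in the same order.

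NLRP2 lies in a dense region with 89 other coding genes within 1 Mb, of which 7 were listed and 5 compared between resistant and parental. Of these 5, 3 were higher and 1 was lower, where 28% of all genes compared were higher and 18.1% lower. GP6, the platelet collagen receptor gene 12.6 kb away, had 4.85 FPKM in parental, 4.18 in S-Exo, 20.3 in resistant and 19.1 in R-Exo, so it was 4.19-fold higher in resistant cells while NLRP2 was listed at 0. LENG9, the nearest listed gene on the other side, had 0.893 FPKM in parental and 0 listed in resistant, but did not reach 1 FPKM. The others called are named after their values were seen. BRSK1, a brain serine/threonine kinase gene, was also higher, with 1.60 FPKM in parental, 1.34 in S-Exo, 6.77 in resistant and 6.80 in R-Exo. AC010327.1, listed at 0 in parental, had 3.55 FPKM in resistant and 3.97 in R-Exo, but 4.95 in S-Exo, so it did not separate the same pairs of libraries. TNNI3, the cardiac troponin I gene, was the lower one, with 37.2 FPKM in parental, 28.0 in S-Exo, 13.9 in resistant and 14.8 in R-Exo. The models of AC010327.1 and TNNI3 overlap on the same strand, so fragments may be shared between them. Farther off, ZNF550, a zinc finger gene 2.53 Mb away and likewise chosen, had 2.78 FPKM in parental, 2.76 in S-Exo and 0.0115 in resistant and was listed at 0 in R-Exo. By plain ratio it was 241-fold lower in resistant, where CALB1 was 8.03-fold lower. The 241-fold ratio rests on a resistant value near the low end of the table. On the log2(FPKM + 1) scale ZNF550 was at -1.90 and CALB1 at -2.84.

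**Figure D4:**
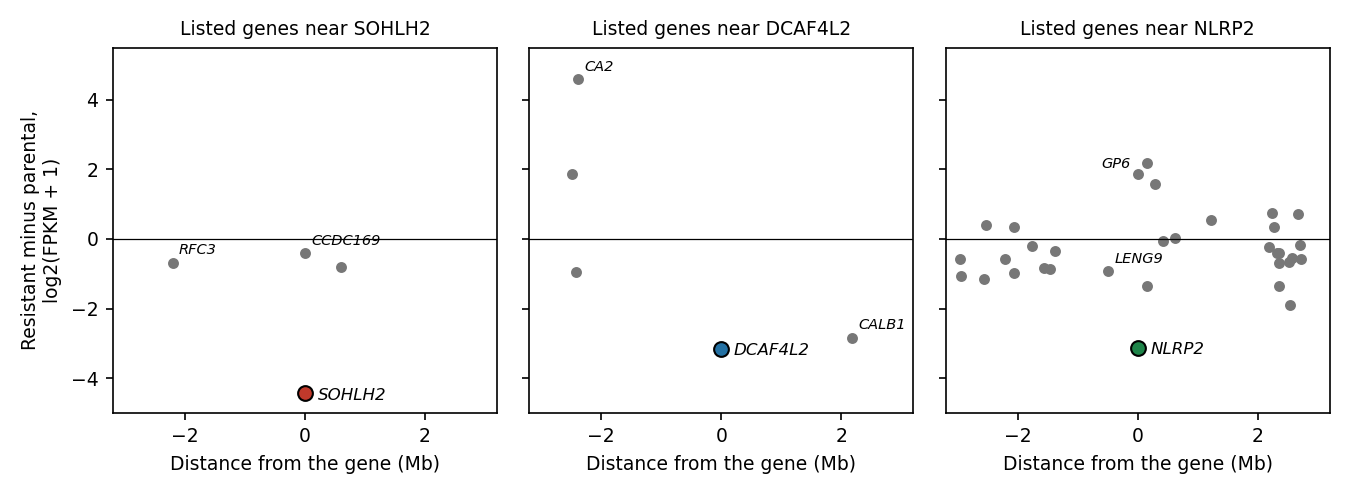
Log2 difference of (FPKM + 1), resistant minus parental, of each listed gene within 3 Mb of SOHLH2, DCAF4L2 or NLRP2, against its distance from that gene in Mb, with genes under 1 FPKM included and the nearest listed gene on each side named. The 3 germ-cell genes (coloured) lie below all of their listed neighbours shown, with CALB1 at -2.84 the closest in value.

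The other listed germ-cell genes were higher in some cases and lower in others, in resistant against parental and in R-Exo against S-Exo (the main comparisons). List counts here and below are read beside all genes compared, of which 18.1% were lower and 28% higher in the first (median log2 difference 0.42) and 21.2% and 23.2% in the second (median 0.21). Lists of germline transcription factors, germ-cell RNA and piRNA genes, meiosis genes, and oocyte and maternal effect genes held 16 listed genes besides the 3, and 9 were compared between resistant and parental. Of these 9, 2 were higher and 2 lower (median log2 difference 0.45) beside the 28% and 18.1% of all genes. In R-Exo against S-Exo 2 of 10 were higher and 2 lower (median -0.06). With the median of all genes set to 0, 2 were higher and 3 lower in both. List counts under this setting, here and below, are read beside all genes under it. Of these, 755 of 2151 were lower and 276 higher in resistant against parental. In R-Exo against S-Exo 678 of 2154 were lower and 331 higher.

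Cancer-testis genes, which are expressed in testis and in some tumours, were not one of these lists, and those given here were chosen after their values were seen. SSX2, which encodes a transcriptional repressor, had 45.7 FPKM in parental, 44.8 in S-Exo and a listed 0 in both other libraries. SSX2B, a near-identical copy that can share its reads, had 54.1 and 44.0 FPKM in the high libraries and was listed at 0 in the low ones. Their log2 differences, -5.55 and -5.78 in resistant against parental and -5.52 and -5.49 in R-Exo against S-Exo, lay below those of SOHLH2, DCAF4L2 and NLRP2. The low position was therefore not particular to these 3 among the germ-line genes of the table. MAGEB1 (6.02 FPKM in parental, 15.1 in resistant) and PASD1 (0.654 and 4.10) were higher in both main comparisons, PASD1 but not MAGEB1 also with the median of all genes set to 0. XAGE1A (22.2 and 43.4 FPKM) passed the limit as higher in R-Exo against S-Exo as deposited (1.30), and its difference in resistant against parental was 0.94.

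Of the 38 germline transcription factors, SOHLH2 and 3 others were listed, and the 3 others stayed under 1 FPKM in all libraries. They were BHMG1, a meiotic regulator also called MEIOSIN (0.308 to 0.889 FPKM), PRDM1, a germ-cell specification factor (0.147 to 0.406), and NANOS1, an RNA-binding regulator (0.171 to 0.408). Of 40 germ-cell RNA and piRNA genes 2 were listed. TEX19, known in mice for restraining retrotransposons in germ cells, had 11.4 FPKM in parental, 10.0 in S-Exo, 3.40 in resistant and 2.49 in R-Exo, and was counted as lower in both main comparisons. DDX53, a cancer-testis helicase gene, had 1.52 FPKM in parental and 3.11 in resistant and did not pass the limit.

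Of 37 meiosis genes 9 were listed. Resistant against parental held 6 of them, with 2 higher and 1 lower (median 0.61). PRDM9, the methyltransferase that places meiotic recombination hotspots, had 2.79 FPKM in parental, 2.17 in S-Exo, 21.8 in resistant and 22.4 in R-Exo. SPATA22, a meiotic recombination gene, was listed at 0 in parental and S-Exo and had 4.08 and 4.56 FPKM in resistant and R-Exo, which is the reverse of the NLRP2 pattern. SYCE2, which encodes a part of the synaptonemal complex, was the lower one, with 4.71 FPKM in parental and 1.54 in resistant. The other 6 did not pass the limit or were not compared. Among them MLH3, a mismatch repair and crossover gene, had 1.90 FPKM in parental and 3.97 in resistant, STAG3, a meiotic cohesin gene, 0.899 and 1.60, and REC8, another one, 0.658 and 0.327. In R-Exo against S-Exo 7 were compared, with PRDM9 and SPATA22 higher and SYCE2 lower (median 0.45).

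Of 36 oocyte and maternal effect genes, NLRP2, NLRP14 and ZP3 were listed. ZP3, which encodes an egg-coat protein, had 2.96 FPKM in parental and 1.51 in resistant and passed the limit in neither main comparison. NLRP14 is also a member of the 23 NLR family genes, and had 0.0105 to 0.461 FPKM. NOD1, a sensor of bacterial peptidoglycan and the other listed NLR gene, had 2.16 FPKM in parental and 0.783 in resistant (log2 difference -0.82) and passed the limit in neither comparison. With the median of all genes set to 0, both ZP3 and NOD1 were past the limit as lower in both.

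**Figure D5:**
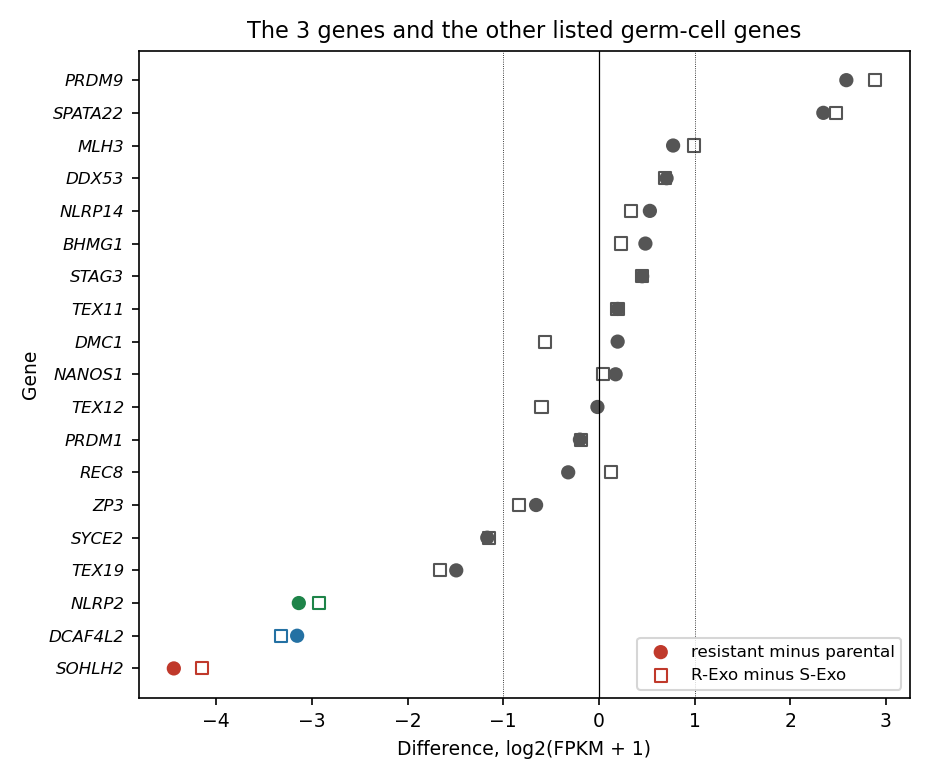
Log2 difference of (FPKM + 1) of the 3 genes (coloured) and the other 16 listed germ-cell genes (grey), with filled circles for resistant minus parental and open squares for R-Exo minus S-Exo, and dotted lines at -1 and 1. Among the genes drawn, SOHLH2, DCAF4L2 and NLRP2 lie lowest, between -4.44 and -2.92, and PRDM9 and SPATA22 highest, between 2.35 and 2.88. SSX2 and SSX2B, which are not in these lists and not drawn, were lower still (-5.78 to -5.49).

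Of 14 genes put in a list of KIT and genes linked to SOHLH2, 3 were listed. KIT, the receptor gene whose expression SOHLH1 and SOHLH2 are known to support in mouse spermatogonia, had 1.39 FPKM in parental, 1.80 in S-Exo, 0.350 in resistant and 0.276 in R-Exo. Its log2 difference was -0.82 in resistant against parental, short of the limit, and -1.13 in R-Exo against S-Exo. ZP3 and MT1X were the other listed ones. Of the 3 genes, 1 was lower in resistant against parental and 2 in R-Exo against S-Exo (medians -0.82 and -1.13). All 3 were lower in both with the median of all genes set to 0. Under that setting 755 of 2151 and 678 of 2154 compared genes were lower. MT1X, whose link to SOHLH2 is uncertain, is a metallothionein gene with close paralogs that can share reads. It had 4.26 FPKM in parental and 4.02 in S-Exo and in resistant and R-Exo it was listed at 0.

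Of 87 genes of the wider helix-loop-helix family, 8 were listed besides SOHLH2. Resistant against parental held 5, with 2 higher and 0 lower (median 0.68), but 1 higher and 2 lower with the median of all genes set to 0, and 1 higher and 0 lower after quantile normalization. HES7, a segmentation clock repressor, had 0.234 FPKM in parental and 4.43 in resistant, and HEY1, a Notch target, had 2.75 and 7.14. LYL1, a haematopoietic factor, had 81.8 FPKM in parental, 47.9 in resistant and 38.4 in R-Exo, and passed the limit as lower in R-Exo against S-Exo (log2 difference -1.06). HAND2 (1.50 FPKM in parental against 3.01 in resistant) and MLXIPL (1.89 against 0.902) did not pass the limit between these libraries. HEYL (0.144 against 0.600) stayed under 1 FPKM in all libraries and was not compared. In R-Exo against S-Exo 3 of 5 were higher and 1 lower (median 1.01), or 1 and 1 with the median of all genes set to 0.

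For the CUL4-DDB1 ligase and DCAF genes, 3 of 39 were listed besides DCAF4L2, and the 2 compared between resistant and parental were both lower (median -1.09, beside 18.1% lower and a median of 0.42 over all genes compared). CRBN, a DCAF that binds thalidomide-type drugs, had 22.0 FPKM in parental, 18.8 in S-Exo, 9.62 in resistant and 10.4 in R-Exo. DCAF8L1, a relative of DCAF8, had 1.92, 1.60, 0.387 and 0.399 FPKM in the same order. R-Exo against S-Exo put neither past the limit (median -0.85), and both with the median of all genes set to 0. DCAF8L2 stayed at or below 0.481 FPKM. CRBN was thus 2.28-fold lower in resistant cells, where DCAF4L2 was 67.6-fold lower.

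Of 30 genes in a list of inflammasome, pyrin-domain and linked signalling genes, 7 were listed. Resistant against parental held 6, with 3 lower and 1 higher (median -0.84), beside 18.1% lower and 28% higher over all genes. With the median of all genes set to 0, and after quantile normalization, 3 were lower and 0 higher. CARD16, a decoy of caspase-1, had 4.30 FPKM in parental and 0.619 in resistant. CARD8, an inflammasome sensor gene, had 16.6 and 6.66, and CASP4, the sensor of intracellular lipopolysaccharide, had 5.54 and 1.98. GSDME, a pore-forming gasdermin gene, was the higher one, at 1.15 FPKM in resistant against 0.0222. IL18, an interleukin gene named after its values were seen (2.70 FPKM in parental against 1.53), and IFI16, a DNA sensor gene (0.484 against 1.71), did not pass the limit, and RELB, an NF-kB subunit gene, stayed under 1 FPKM (0.285 against 0.959). In R-Exo against S-Exo 3 of 5 were lower, namely CASP4, CARD16 and IL18, and 1, IFI16, was higher (median -1.05), or 4 lower and 0 higher with the median of all genes set to 0.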

How the data were processed

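The authors deposited FPKM values in 1 table with a column per library. Its name gives the unit and calls the rows differentially expressed, but how they were picked was not given in the sources used here. SAMtools 0.1.18, TopHat2, GATK and Picard appear without a role, per the submitters' processing notes. Build, annotation and counter were not given in the sources used here, and no depth could be read, so no interval was put on a value. Libraries were made from poly-A RNA, per the labels' protocols.

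The difference between libraries was log2(FPKM + 1) of one minus the other, over genes that reached 1 FPKM in either, and an absolute difference of at least 1 was counted. With 1 library per group there was no test and no p-value. Alternatives were a pseudocount of 0.1, no minimum, a 5 FPKM minimum, quantile normalization, and subtracting the median difference. The code was tested on simulated data. The 3 genes and the 11 gene lists were chosen with earlier results of these data known. The text names the 3 genes, the 5 nearest profiles of each, up to 6 members of each list with the largest resistant against parental difference, and the nearest listed gene on each side. All 2288 Ensembl identifiers were found in GENCODE release 29. Python 3.11.15, pandas 2.3.3 and numpy 2.4.6 were used. One erythroid marker is not reported here.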

Additional observations from a re-analysis of the deposited data

How the results depend on the processing

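The 9 differences of SOHLH2, DCAF4L2 and NLRP2 between the high and the low libraries kept their sign and their side of the limit in all 27 recomputed values, which ran from -6.30 to -2.97 on the log2 scale. These genes were chosen on such levels and their differences lay far past the limit, so this outcome was nearly set in advance. The 6 differences between like libraries stayed under the limit in all 18 recomputed values (-0.85 to 0.40). For R-Exo against resistant this was also largely set in advance. All those levels lay under 0.5 FPKM, where the number added to each value holds the difference down, and NLRP2 was listed at 0 in both. The plain log2 ratio of DCAF4L2 in R-Exo over resistant was -2.17. Counts over the table depended on the settings. With a pseudocount of 0.1, 608 genes were lower and 908 higher in resistant against parental, 758 and 776 in R-Exo against S-Exo, 738 and 769 in R-Exo against parental, 45 and 81 in S-Exo against parental, and 91 and 69 in R-Exo against resistant. With at least 5 FPKM the counts in the same order were 211 and 317, 246 and 254, 256 and 245, 8 and 10, and 12 and 14. Re-scaled to a median difference of 0, 755 were lower and 276 higher in resistant against parental, 331 higher in R-Exo against S-Exo, and 759 lower and 279 higher in R-Exo against parental. The other germ-cell genes counted as lower in R-Exo against S-Exo were 4 with a pseudocount of 0.1. The nearest profiles depended on the measure: with a pseudocount of 0.1 the 5 nearest genes shared 0 with those given for SOHLH2, 1 for DCAF4L2 and 3 for NLRP2, and with a correlation 0, 0 and 1. The cause was not tested. No paired analysis was possible because each group had 1 library. The unknown depth limits what values near 0 can show.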

Other observations

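Imprinted genes and genes of DNA and chromatin silencing, which are tied to germ-line gene control in the textbook account, were also partly in the table. Of 35 imprinted genes, 7 were listed besides NLRP2, and between resistant and parental 4 of 7 compared were higher and 0 lower (median 1.23), beside 28% higher, 18.1% lower and a median of 0.42 over all genes compared. DIRAS3, a small GTPase gene, had 0.0572 FPKM in parental, 0.0307 in S-Exo, 5.08 in resistant and 3.47 in R-Exo. PLAGL1, a zinc finger factor gene, had 3.94, 4.36, 11.8 and 11.0 FPKM in the same order, and PHLDA2, a placental growth regulator, 7.20, 11.4, 20.1 and 17.0. DLK1 was listed at 0 in parental and had 1.34 FPKM in resistant. RB1 (22.5 FPKM in parental, 14.5 in resistant) and CDKN1C (1.27 and 2.35) did not pass the limit. In R-Exo against S-Exo 2 of 6 were higher and 1, RB1, was lower (median 0.31). With the median difference of all genes set to 0, 1 of the 7 was higher and 1 lower in resistant against parental.

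Of 44 genes of DNA methylation and silencing, EED and SETDB2 were listed. EED, a core subunit of the Polycomb complex that methylates histone H3, had 61.0 FPKM in parental, 52.4 in S-Exo, 26.7 in resistant and 18.9 in R-Exo and was lower in both main comparisons. SETDB2, a SET-domain methyltransferase gene, had 3.74, 3.41, 1.30 and 1.59 FPKM in the same order and was lower in resistant against parental (log2 difference -1.04) but not past the limit in R-Exo against S-Exo (-0.77). These values were not set against the levels of SOHLH2, DCAF4L2 or NLRP2 by any test.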
